A study of Mus musculus with 6 samples.

Results

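The 9 genes described here (Cd163, Mrc1, Lyve1, Pf4, F13a1, Cbr2, Ms4a7, Stab1 and Siglec1) are known for their high expression in perivascular macrophages, and all 9 were found by symbol among the 55492 genes of the expression table. They were chosen by the strong fall of the measured Cd163 and Mrc1 levels in the mutant mice of these same data, so the direction of the genotype difference is part of the choice and is described below without p-values for the members. Perivascular macrophages lie between the vessel wall and the brain tissue, where they take up proteins, lipoproteins and cell debris from the blood and the fluid around the vessels. Their surface receptors include scavenger receptors and lectins that bind sugars. They share many genes with microglia, the macrophages of the brain tissue itself, but differ in this receptor repertoire.

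RNA was measured by poly(A) RNA-sequencing of cells purified from whole brains of 16-day-old mice with magnetic microbeads against O4, a lipid antigen of late oligodendrocyte progenitors and immature oligodendrocytes. The groups were 3 WT and 3 Npc1-/- mice, 1 library per mouse. The Npc1-/- mice carry the Npc1-nih allele and were F1 hybrids from Npc1+/- parents on the BALB/cJ and C57BL6/J backgrounds, and no mouse received a treatment. The background of the WT mice of these libraries is not given separately in the sources used here. NPC1 exports cholesterol from late endosomes and lysosomes, and its loss causes Niemann-Pick disease type C. The cells were exposed to an Fc blocking reagent before the beads. The sample titles call the cells O4+ cells, and macrophage genes are a minor part of this RNA.

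Values are TPM (a transcript abundance that is corrected for transcript length and has the same total in every library), divided by a size factor per library and called scaled TPM below. The libraries held between 40500000 and 50500000 fragments, as estimated from the steps in the low values. Npc1 itself was 53.3, 50.4 and 45.5 TPM in WT and 4.10, 4.42 and 3.16 TPM in Npc1-/- samples, which follows the labels. Mbp, which encodes myelin basic protein, alone made up 18.8% to 26.1% of all TPM. Size factors were lowest in Npc1-/- replicate 3 (0.727) and highest in WT replicate 1 (1.295). Npc1-/- replicate 3 had 15.6 TPM of Xist and none of the Y-linked Ddx3y, whereas the other 5 libraries had at most 0.01 TPM of Xist, so sex is not balanced between the genotypes.

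The 9 genes lie on 8 chromosomes, and the sequences before the start sites of 3 of them are shown because these genes span the range of the changes described below, with Cd163 and Mrc1 at the strong end and Stab1 at the weak end. Positions are on GRCm38. Cd163 lies at chr6:124304656-124330527 on the plus strand, Mrc1 at chr2:14229392-14332057 on the plus strand and Stab1 at chr14:31139013-31168641 on the minus strand. The upstream sequences come from the RefSeq promoter table (GRCm38.p6), at chr6:124304401-124304650 for Cd163, chr2:14229164-14229391 for Mrc1 and chr14:31168642-31168891 for Stab1, each written 5′ to 3′ on the strand of its gene. Capitals mark matches to GAGGAA, the core that the macrophage factor PU.1 binds, on either strand (as TTCCTC on the other), or to the MAF half-site TGCTGA on either strand.
Cd163: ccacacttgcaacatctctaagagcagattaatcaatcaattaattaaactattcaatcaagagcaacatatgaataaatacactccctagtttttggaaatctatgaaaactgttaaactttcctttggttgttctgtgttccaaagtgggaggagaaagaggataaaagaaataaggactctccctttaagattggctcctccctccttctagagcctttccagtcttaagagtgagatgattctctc
Mrc1: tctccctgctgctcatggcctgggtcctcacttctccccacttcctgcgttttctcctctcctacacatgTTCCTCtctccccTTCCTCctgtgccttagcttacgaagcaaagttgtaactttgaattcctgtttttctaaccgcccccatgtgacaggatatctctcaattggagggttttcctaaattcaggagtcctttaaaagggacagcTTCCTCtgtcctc
Stab1: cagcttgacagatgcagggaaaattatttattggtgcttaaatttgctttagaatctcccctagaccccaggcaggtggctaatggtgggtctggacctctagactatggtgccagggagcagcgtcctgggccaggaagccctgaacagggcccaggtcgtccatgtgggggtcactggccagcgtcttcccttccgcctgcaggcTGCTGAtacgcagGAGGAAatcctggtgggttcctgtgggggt
The promoter table held 7 of the 9 members, Lyve1 and Siglec1 not among them. These 7 had 9 start sites, since F13a1 and Ms4a7 had 2 each. In the 250 bases before a start site, GAGGAA occurred at 5 of the 9 sites, against 23.3% of 32817 mouse promoters of this length. The 5 were those of Mrc1, Pf4, Cbr2 and Stab1 and 1 of the 2 of F13a1. The MAF half-site occurred in Stab1 only among these 7 members, and in 16.1% of all promoters. A C/EBP motif (TTGCNNAA, both strands) was present in Pf4 only (9.57% of all promoters), and none of the 7 held TATAAA (12.4%). These are matches of letters in a short window, and no binding was measured.

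All 9 genes were lower in every Npc1-/- sample than in any WT sample, on scaled TPM and also on TPM as deposited. Such a separation, Npc1-/- below WT without overlap, was present in 14.2% of the 15245 genes with a mean of at least 0.5 TPM. The Npc1-/- mean ran from 5.86% of the WT mean for Cd163 to 39.5% for Stab1, with a median of 25.2% over the 9 genes. Their summed level was 54.9, 34.1 and 40.7 scaled TPM in WT samples and 12.2, 14.4 and 13.3 in Npc1-/- samples, and the highest Npc1-/- sum was well below the lowest WT sum. In bulk RNA, fewer cells of a type and less RNA per cell cannot be told apart.

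**Figure D1:**
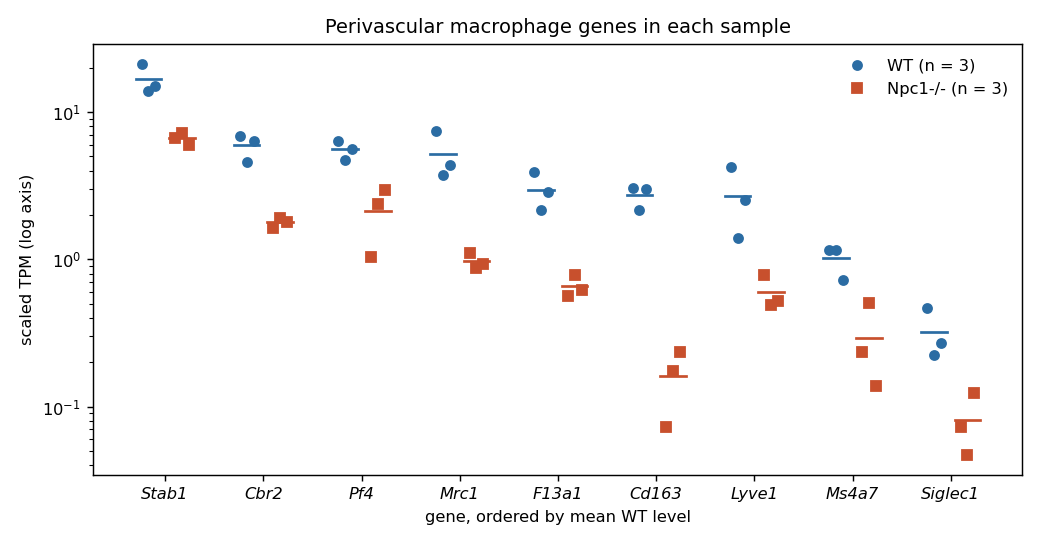
Scaled TPM (log axis) of the 9 perivascular macrophage genes in each of the 3 WT samples (circles) and 3 Npc1-/- samples (squares), with group means as bars and genes ordered by WT level. No Npc1-/- point reaches a WT point of the same gene, and the distance is widest for Cd163, at 2.18 to 3.06 in WT and 0.073 to 0.234 in Npc1-/- samples.

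The receptors for uptake come first. Cd163 encodes the scavenger receptor for complexes of haemoglobin with haptoglobin. Its level was 3.06, 2.18 and 2.98 scaled TPM in WT and 0.073, 0.175 and 0.234 in Npc1-/- samples (means 2.74 ± 0.488 and 0.161 ± 0.082, SD, n = 3 each). The highest Npc1-/- value was 10.7% of the lowest WT value, the widest gap among the 9 genes. On the log2(scaled TPM + 0.5) scale the difference was -2.29 (SE 0.19), the fifth lowest of the 15245 genes. The added 0.5 understates the change of low genes, and with 0.1 in its place the difference was -3.48. The values correspond to about 520, 274 and 401 fragments in WT and 9.2, 22.3 and 25.5 in Npc1-/- libraries, so counting error is larger in the mutants.

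Mrc1 encodes the macrophage mannose receptor, which takes up glycoproteins with exposed mannose. It measured 7.39, 3.73 and 4.37 scaled TPM in WT and 1.10, 0.877 and 0.936 in Npc1-/- samples, a mean of 18.8% of WT and a log2 difference of -1.90 (SE 0.24). The 3 mutant values were close together, whereas WT replicate 1 was well above the other WT samples. The gene for the microRNA Mir511 lies inside Mrc1 on the same strand.

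Stab1, at chr14 as given above, encodes stabilin-1, a scavenger receptor for modified lipoproteins and matrix proteins. It was the most abundant of the 9 genes in both genotypes, at 21.4, 13.9 and 15.0 scaled TPM in WT and 6.69, 7.22 and 5.97 in Npc1-/- samples. The log2 difference was -1.25 (SE 0.17), and Stab1 kept the largest share of its WT level among the members. The gene overlaps Nt5dc2 on the opposite strand, and since the use of strand in counting is not given in the sources used here, reads of the overlap cannot be told apart.

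Lyve1, a receptor for hyaluronan that is also found on lymphatic vessels, lies at chr7:110850607-110863239 on the minus strand. Its WT samples held 4.21, 1.40 and 2.52 scaled TPM and its Npc1-/- samples 0.781, 0.491 and 0.523, a log2 difference of -1.46 (SE 0.32). WT replicate 1 was about 3 times WT replicate 2, the widest spread among WT samples of the members tested. Siglec1, or sialoadhesin, binds sialic acids and lies at chr2:131069220-131086765 on the minus strand. At 0.471, 0.226 and 0.270 scaled TPM in WT and 0.073, 0.047 and 0.124 in Npc1-/- samples it was the lowest of the 9 genes, and it was the one member that did not reach a mean of 0.5 TPM. Its Npc1-/- mean was 25.2% of WT, and its log2 difference of -0.49 (SE 0.13, from a fit without the filter) is strongly damped by the added 0.5.

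The secreted products follow. Pf4 encodes platelet factor 4, a chemokine that platelets also store, at chr5:90772435-90773383 on the plus strand. It stood at 6.39, 4.74 and 5.62 scaled TPM in WT and 1.03, 2.39 and 2.96 in Npc1-/- samples (log2 difference -1.28, SE 0.30). Its SD was 0.824 in WT and 0.988 in Npc1-/- samples, with Npc1-/- replicate 1 the lowest. F13a1 encodes the A subunit of coagulation factor XIII, a transglutaminase that cross-links fibrin, at chr13:36867178-37050244 on the minus strand. It was 3.91, 2.15 and 2.86 scaled TPM in WT and 0.563, 0.784 and 0.619 in Npc1-/- samples, 22% of WT (log2 difference -1.56, SE 0.21). The antisense genes Gm49144 and Gm30489 overlap it, and the caution on strand applies there too.

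Of the remaining members, Cbr2 encodes a carbonyl reductase and lies at chr11:120729489-120732114 on the minus strand. It measured 6.92, 4.57 and 6.37 scaled TPM in WT and 1.64, 1.92 and 1.80 in Npc1-/- samples, 30.0% of WT, with a log2 difference of -1.48 (SE 0.17). The 3 mutant values were close together and all far below the lowest WT sample. Ms4a7 encodes a membrane protein of the MS4A family, at chr19:11321039-11336146 on the minus strand. It was low, at 1.17, 1.17 and 0.722 scaled TPM in WT and 0.236, 0.503 and 0.138 in Npc1-/- samples, and its log2 difference of -0.95 (SE 0.25) was the smallest of the 8 members that passed the filter. That rank depends on the added 0.5, which damps low genes. The Npc1-/- mean of Ms4a7 was 28.7% of WT, beside 39.5% for Stab1. With 0.1 added in place of 0.5, the difference was -1.59 for Ms4a7 and -1.30 for Stab1. Its highest mutant sample reached 69.6% of its lowest WT sample, the narrowest gap among the 9 genes.

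By level in WT samples, Stab1 stood above Cbr2, Pf4, Mrc1, F13a1, Cd163 and Lyve1, then Ms4a7, then Siglec1. Neighbours in that order overlapped in their WT ranges from Cbr2 down to Lyve1, while Stab1 was separate from Cbr2, Lyve1 from Ms4a7, and Ms4a7 from Siglec1. In the Npc1-/- samples Cd163 fell from its place beside F13a1 and Lyve1 to a mean level between those of Ms4a7 and Siglec1. Its range in the Npc1-/- samples overlapped those of both, as the plot of levels by sample shows.

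Differential expression across all genes was assessed with limma on the log2 values, with genotype as the only factor. A gene was called at a Benjamini-Hochberg adjusted p below 0.05 if its log2 fold change was 0.1 or more in either direction. By that rule 61 genes were higher and 63 lower in Npc1-/- samples, which is 0.4% and 0.413% of the 15245 tested. Of the members, 5 of the 8 that passed the filter were among them (Cd163, Mrc1, F13a1, Cbr2 and Stab1), a count that the choice of members partly fixes. For Cd163 and Mrc1, whose fall in these data made that choice, being called is no separate result. The count of members called depends on single libraries, being 0 without WT replicate 3 or Npc1-/- replicate 2, 1 without Npc1-/- replicate 1, 2 without WT replicate 1 or WT replicate 2, and 6 without Npc1-/- replicate 3 (where 2.47% of all genes were called lower). It was 1 without a filter on low values, 1 with a minimum mean of 5 TPM (where Stab1 was the 1 member tested), and 8 on TPM as deposited or with the replicate number as a block, where 5.71% and 5.69% of all genes were called lower. The log2 difference itself was below 0 for each member in every alternative in which it was fitted. The median over the 8 members was -1.47, beside 0.01 over all genes tested. The 5 called genes with the largest falls were Npc1 (log2 fold change -3.17, SE 0.12), Cd163, the predicted gene Gm5876, Mrc1 and the pseudogene Eif1-ps1, and Gm5876 and Eif1-ps1 were listed at 0 in all Npc1-/- samples.

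Other genes of macrophages at the borders of the brain were next compared, to see whether the fall extended beyond the 9 genes. Of a list of 26 such genes, 12 passed the filter, and limma called 0 of them, while 9 had an unadjusted p below 0.05 in the lower direction (11.6% of all genes) and 9 did not overlap between the genotypes (14.2% of all genes). Their median log2 difference was -0.98, a scale on which the added 0.5 damps low genes. As a share of the WT mean, the Npc1-/- mean of these 12 genes had a median of 32.3% (range 9.81% to 130%). The 8 members tested had a median of 25.4% by the same measure. Among the 3 most abundant, Dab2, an endocytic adaptor, was 16.6 ± 4.81 scaled TPM in WT and 10.6 ± 0.585 in Npc1-/- samples (log2 difference -0.59, adjusted p = 0.126 in limma). Tgfbi, a secreted matrix protein, differed by -0.40 (limma adjusted p = 0.180) and Folr2, a folate receptor, by -0.35 (limma adjusted p = 0.450), with overlapping samples for Folr2. The lowest tested gene of the list was Ms4a4a, at 0.865 to 1.97 scaled TPM in WT and 0.058 to 0.248 in Npc1-/- samples (log2 difference -1.53, limma adjusted p = 0.0526). At the other end Ccl8, a chemokine gene, was 0.536 ± 0.510 scaled TPM in WT and 0.699 ± 0.419 in Npc1-/- samples (SD, n = 3 each, log2 difference 0.25, limma adjusted p = 0.783). Wfdc17, which did not pass the filter, was higher in all Npc1-/- samples, at 0 to 0.318 scaled TPM in WT and 0.408 to 0.908 in Npc1-/- samples. Marco, also below the filter, was higher too, at 0 to 0.031 in WT and 0.035 to 0.041 in Npc1-/- samples. Cd209f and Cd209a, likewise below it, were lower in all Npc1-/- samples, at means of 6.13% and 35.5% of WT. The other genes below the filter overlapped. Ms4a4a, Ccl8 and the genes below the filter were named after their values were seen, and Ms4a4a is a relative of Ms4a7 that lies next to it.

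Microglia genes were compared because the members share their lineage. Of 13 genes of homeostatic microglia, limma called 1 lower, Tmem119, a surface marker of microglia, at 14.7, 9.78 and 11.2 scaled TPM in WT and 3.54, 3.26 and 5.53 in Npc1-/- samples (log2 difference -1.44, adjusted p = 0.0442). Of the list, 11 had an unadjusted p below 0.05, all lower (11.6% of all genes), 9 did not overlap with Npc1-/- lower (14.2% of all genes), and the median log2 difference was -0.86. Sall1 and Trem2, named after their values were seen, were not lower (log2 difference 0.23 and 0.04, limma adjusted p = 0.384 and 0.938) and overlapped. Of 20 genes shared by microglia and macrophages, limma called 0 (12 at an unadjusted p below 0.05, all lower), and 10 did not overlap, with a median of -0.72. The complement genes C1qa and C1qc and the cathepsin gene Ctss, the most abundant of these, differed by -0.78, -0.78 and -0.68 (limma adjusted p = 0.169, 0.165 and 0.253). Lyz2, which encodes lysozyme and was named after its values were seen, ran the other way without separation (5.77 to 9.75 scaled TPM in WT and 6.77 to 14.1 in Npc1-/- samples).

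**Figure D2:**
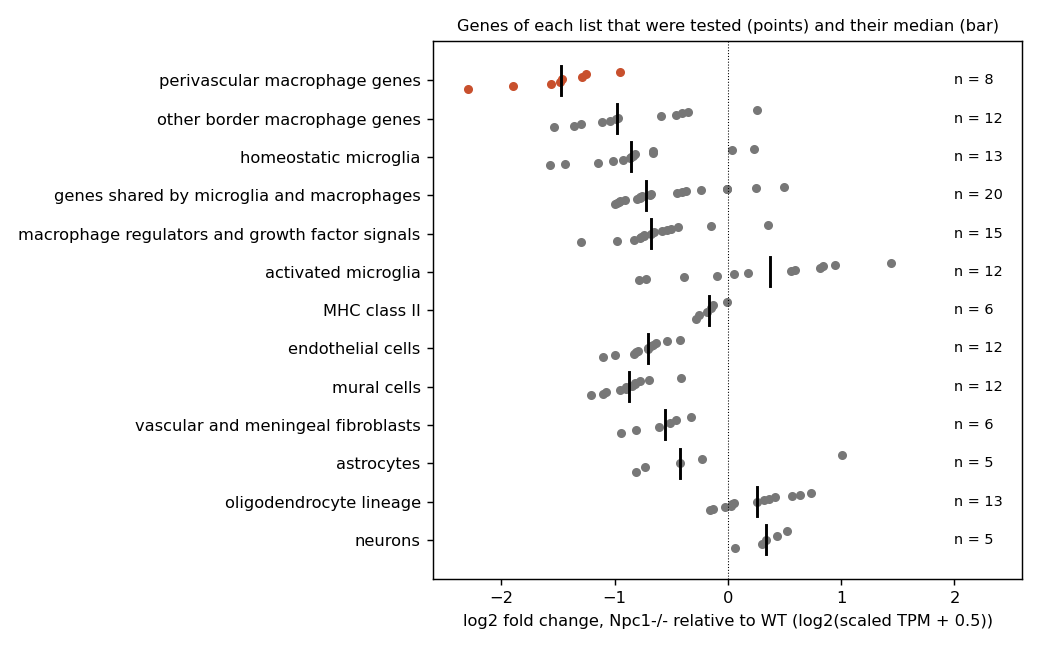
Log2 difference between Npc1-/- and WT samples (horizontal axis, on the log2(scaled TPM + 0.5) scale) for each tested gene of 13 lists, with the median of each list as a bar and the number of genes at the right. The 8 tested perivascular macrophage genes have a median of -1.47, and the medians of the other border macrophage genes, microglia and mural cells are -0.98, -0.86 and -0.87.

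Among 16 regulators and growth factor signals of macrophages, 15 passed the filter and limma called 0 of them, with 11 at an unadjusted p below 0.05 in the lower direction and 1 in the higher (11.6% and 10.6% of all genes). Csf1r, the receptor on which macrophages depend for survival, was 65.4, 42.3 and 45.2 scaled TPM in WT and 15.2, 18.2 and 28.9 in Npc1-/- samples (log2 difference -1.30, limma adjusted p = 0.0580). All Npc1-/- samples were below all WT samples. Tgfbr2, a receptor for TGF-β, differed by -0.83 (limma adjusted p = 0.0557) and Nr3c1, the glucocorticoid receptor, which most cells express, by -0.15 (limma adjusted p = 0.451). The transcription factor gene Maf, named after its values were seen, differed by -0.66 (limma adjusted p = 0.0907).

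Since Csf1r is common to microglia and perivascular macrophages, the level of each member was set against it within each sample, a comparison chosen after the values were seen and given without a test. Per 100 of Csf1r, Cd163 was 4.68, 5.15 and 6.61 in WT and 0.476, 0.962 and 0.810 in Npc1-/- samples. Mrc1 was 11.3, 8.82 and 9.67 in WT and 7.21, 4.81 and 3.24 in Npc1-/- samples. The genotypes did not overlap for Cd163, Mrc1, F13a1 and Siglec1, and the share of all genes that separate by this ratio was not computed. Siglec1, which did not pass the filter, was at 0.534 to 0.720 in WT and 0.257 to 0.476 in Npc1-/- samples. For the other members the genotypes overlapped. Stab1 was 32.7, 32.9 and 33.2 per 100 of Csf1r in WT and 43.9, 39.6 and 20.7 in Npc1-/- samples, with mutant values on both sides of the WT values. The mean for Cd163 was 0.749 ± 0.248 in Npc1-/- against 5.48 ± 1.01 in WT samples, a wider gap than that of any other member.

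**Figure D3:**
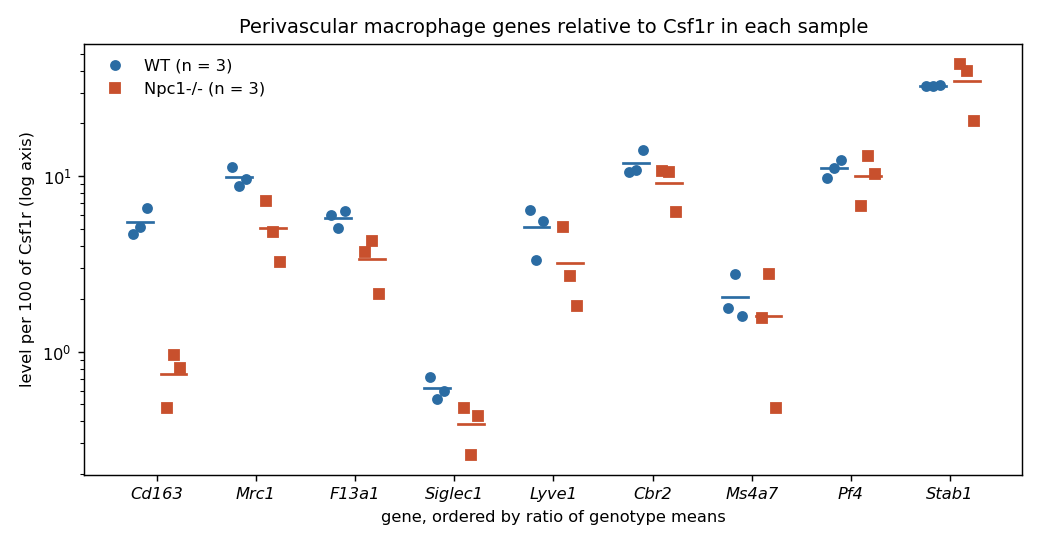
Level of each perivascular macrophage gene per 100 of Csf1r (log axis) in each WT sample (circles) and Npc1-/- sample (squares), with group means as bars and genes ordered by the ratio of the means. Cd163 lies at 4.68 to 6.61 in WT and at 0.476 to 0.962 in Npc1-/- samples, whereas the genotypes overlap for Lyve1, Cbr2, Ms4a7, Pf4 and Stab1.

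The same was done with sums over lists. The 9 members summed to 25.5, 24.9 and 25.4 per 100 of the summed microglia genes in WT and to 16.5, 15.5 and 11.3 in Npc1-/- samples. The 3 WT ratios were close together although the WT sums themselves differed. Per 100 of the genes shared by microglia and macrophages the members gave 15.4, 14.1 and 14.6 in WT and 9.54, 7.13 and 5.25 in Npc1-/- samples. In both ratios the genotypes did not overlap. The ratio to fibroblast genes overlapped, at 33.0 to 60.7 per 100 in WT and 18.7 to 33.1 in Npc1-/- samples.

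Cells of the vessel wall, which perivascular macrophages adjoin, were compared next. Of 12 endothelial genes limma called 0 (11 at an unadjusted p below 0.05, all lower), 11 did not overlap, and the summed level was 1150 to 1346 scaled TPM in WT and 601 to 935 in Npc1-/- samples. The most abundant were Cldn5, a tight junction gene, Ly6c1 and Itm2a, with log2 differences of -0.54, -0.63 and -0.68 (limma adjusted p = 0.138, 0.372 and 0.0870). Of 12 mural cell genes limma called 1, the receptor gene Notch3, at 40.7, 32.5 and 37.1 scaled TPM in WT and 16.2, 14.6 and 21.5 in Npc1-/- samples (log2 difference -1.07, adjusted p = 0.0429). In that list 10 genes had an unadjusted p below 0.05, all lower (11.6% of all genes), 10 did not overlap (14.2% of all genes), and the summed level was 842 to 1135 in WT and 442 to 629 in Npc1-/- samples. Of 7 genes of vascular and meningeal fibroblasts, 6 passed the filter, limma called 0 (3 at an unadjusted p below 0.05, all lower) and 2 did not overlap. The collagen genes Col1a2 and Col3a1 and the proteoglycan gene Dcn differed by -0.81, -0.95 and -0.46 (limma adjusted p = 0.0944, 0.0994 and 0.323). The summed members per 100 of the endothelial sum came to 4.08, 2.88 and 3.54 in WT and 2.03, 1.72 and 1.42 in Npc1-/- samples, and per 100 of the mural sum 4.83, 4.05 and 4.38 in WT and 2.64, 3.26 and 2.12 in Npc1-/- samples. The part of these other cell types in the fall of the members was not tested.

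Markers of further cell types were then examined. Of 13 genes of the oligodendrocyte lineage, which the beads select, limma called 0 (1 at an unadjusted p below 0.05, higher), and the summed level overlapped between the genotypes. Mbp and Mobp, both myelin genes, differed by 0.57 and 0.63 (limma adjusted p = 0.765 and 0.505). Of 5 neuronal genes limma called 0 (1 at an unadjusted p below 0.05, higher), and Tubb3, Snap25 and Stmn2 differed by 0.44, 0.30 and 0.53 (limma adjusted p = 0.456, 0.610 and 0.192), the sign of Snap25 turning on TPM as deposited. Of 5 astrocyte genes it called 0 (2 lower and 1 higher at an unadjusted p below 0.05), with Gfap at 1.01 (limma adjusted p = 0.108) and Slc1a3 and Gja1 at -0.73 and -0.81 (limma adjusted p = 0.0623 and 0.0567). Of these astrocyte genes 4 were lower and 1 was higher in all Npc1-/- samples, beside 14.2% and 13.3% of all genes. Of 14 genes of blood leukocytes and erythrocytes, 5 passed the filter and 0 were called by limma (0 at an unadjusted p below 0.05), and the summed level, nearly all from haemoglobin genes, was 2320 to 5762 scaled TPM in WT and 998 to 4157 in Npc1-/- samples. Hbb-bs, Hba-a1 and Ly6c2 differed by -0.55, -0.56 and -0.57 (limma adjusted p = 0.642, 0.576 and 0.507).

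Genes linked to the activation of macrophages were examined as well. Of 15 genes of activated microglia, 12 passed the filter and limma called 1, Fabp5, a fatty acid-binding protein that other brain cells also express, at 152, 174 and 176 scaled TPM in WT and 276, 315 and 306 in Npc1-/- samples (log2 difference 0.84, adjusted p = 0.0364). The genotypes did not overlap for 4 genes higher and 3 lower in Npc1-/- samples, beside 13.3% and 14.2% of all genes. Gpnmb, a lysosomal glycoprotein named here after its values were seen, was 0.270, 0.208 and 0.289 scaled TPM in WT and 0.762, 1.83 and 2.41 in Npc1-/- samples (log2 difference 1.44, limma adjusted p = 0.0639). Of 8 genes of MHC class II and its loading, 6 passed the filter, limma called 0 (0 at an unadjusted p below 0.05) and no gene was separate. Cd74, H2-DMa and H2-Ab1 differed by -0.28, -0.01 and -0.13 (limma adjusted p = 0.667, 0.977 and 0.833), and H2-DMa changed sign with quantile normalization.

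The ligands of the members' receptors and their relatives were examined too. Of 12 genes for haem and iron, the cargo pathway of CD163, 10 passed the filter and limma called 0 (2 lower and 2 higher at an unadjusted p below 0.05). The ferritin genes Fth1 and Ftl1 and the haem transporter gene Slc48a1 differed by 0.53, 0.70 and 0.41 (limma adjusted p = 0.496, 0.0557 and 0.0789), without overlap for Ftl1 and Slc48a1 and with a change of sign for Fth1 under quantile normalization. Blvrb and Slc40a1, named after their values were seen, were lower without overlap, at 72.6% and 61.1% of WT. The list thus held 2 separate genes in each direction, beside 13.3% (higher) and 14.2% (lower) of all genes. Of 23 relatives of the members by gene family, 14 passed the filter, and limma called 1, Ly75, an endocytic receptor of the mannose receptor family like Mrc1. It was 6.11, 5.17 and 4.91 scaled TPM in WT and 1.79, 2.77 and 2.49 in Npc1-/- samples (log2 difference -1.06, adjusted p = 0.0469). Mrc2 of the same family, named after its values were seen, differed by -0.62 (limma adjusted p = 0.109). The 4 calls made in these lists (Tmem119, Notch3, Fabp5 and Ly75) were each lost when any 1 of the 3 WT samples or of Npc1-/- replicates 1 and 2 was left out.

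The genes next to the members were used to see whether whole stretches of the genome were lower. Of the 18 nearest protein-coding genes that were tested, 1 on each side of each member, limma called 0, and their median log2 difference was -0.03. They ranged from -1.53 for Ms4a4a to 1.15 for Smim4 (limma adjusted p = 0.0757), beside Stab1. Dcxr, a reductase gene 2208 bases from Cbr2, was 8.15 ± 0.742 scaled TPM in WT and 8.19 ± 0.661 in Npc1-/- samples (SD, n = 3 each, log2 difference 0.0068, which turned negative on TPM as deposited). Ppbp, which encodes another platelet chemokine and lies 2372 bases from Pf4, was 0.317, 0.633 and 1.02 scaled TPM in WT and 0.145, 1.43 and 0.495 in Npc1-/- samples (log2 difference -0.06). Both overlapped between the genotypes. Other neighbours had lower values in Npc1-/- samples without a call, among them Mrvi1, 5027 bases from Lyve1 (log2 difference -1.15, limma adjusted p = 0.0507), Hspa12b beside Siglec1 (-0.76, limma adjusted p = 0.0557) and Ly86 beside F13a1 (-0.98, limma adjusted p = 0.0623). For Cd163 the nearest tested gene on one side was Clec4n (-0.97), 1057635 bases away. The neighbours given with values were chosen after these were seen.

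**Figure D4:**
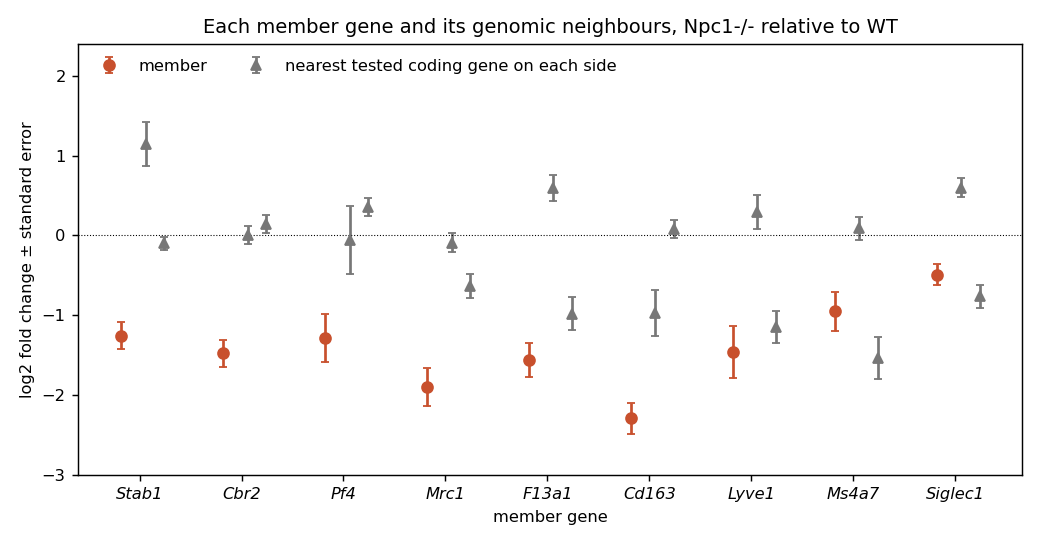
Log2 difference between Npc1-/- and WT samples, with its standard error, for each perivascular macrophage gene (circles) and for the nearest tested protein-coding gene on either side (triangles). The members lie between -2.29 and -0.49, and the 18 neighbours between -1.53 and 1.15 with a median of -0.03.

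Within a genotype the members varied together to different degrees. After the genotype means were removed, F13a1 followed the mean profile of the other members tested most closely (Pearson r = 0.992 over the 6 samples), then Cbr2 (0.878), Stab1 (0.859), Mrc1 (0.765), Lyve1 (0.740) and Cd163 (0.666). Pf4 (0.367) and Ms4a7 (0.07) followed it least. The shared profile was highest in WT replicate 1 and lowest in WT replicate 2. Over all genes that were no members the median r with this profile was -0.01, and over the 15 comparison lists the medians ran from -0.28 to 0.71. The highest were astrocytes (0.71), MHC class II (0.70), the other border macrophage genes (0.69) and microglia (0.68), and the lowest were fibroblasts (-0.18) and the oligodendrocyte lineage (-0.28). These correlations rest on 6 libraries with 2 means removed and share their scaling, and 164 of the 15237 other genes (1.08%) reached 0.9. The 10 genes most like the members by this measure were Dffb, Klhl6, Eif2b1, Tefm, Fgfr1op, Morn2, Gm12276, Gm10132, Hcls1 and Spaca9, with r from 0.986 to 0.998. Of these limma called 1, Gm10132, which was higher in Npc1-/- samples (log2 difference 1.87, adjusted p = 0.0364), and Eif2b1 was also higher in all Npc1-/- samples without a call, though not on TPM as deposited. Klhl6 and Hcls1, known from blood cell lineages, were lower in all Npc1-/- samples without a call (log2 difference -0.62 and -0.66).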

How the data were processed

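RNA-sequencing libraries of O4-selected cells from 3 WT and 3 Npc1-/- mice were grouped by the genotype in their labels. The authors' methods describe trimming with bbduk, alignment to GRCm38 with STAR, assignment with featureCounts and testing with DESeq2, whereas the submitters' processing notes name cutadapt 2.3, FastQC 0.11.8, STAR 2.7.8a, RSEM 1.3.3 and MultiQC 1.7. The authors deposited TPM and FPKM for 55492 genes, each with 2 decimals. The tool that made those values and its use of strand are not given in the sources used here. Fragment counts per gene were not recoverable where a gene has several transcripts, and a count test was therefore not used.

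Size factors were medians of ratios over 18690 genes, and the scaled TPM plus 0.5 was put on the log2 scale. The 15245 genes averaging 0.5 TPM or more entered limma 3.58.1 under R 4.3.3 (lmFit, eBayes with trend, two-sided, Benjamini-Hochberg), a step also tested on simulated data. The member genes and all comparison lists were chosen with earlier results of these data known. The text names all 9 members, every called gene of a list or otherwise its 3 most abundant genes, the 10 genes most like the members and the 5 called genes with the largest fall, and marks others as named after their values were seen. A gene that this rule would name is not reported here. Depth was estimated from low FPKM values of genes with 1 transcript: with the depths found, 80.6% to 83.4% of these values lay within 0.15 of whole fragments, against 30% by chance. Fragment numbers of a member assume its longest coding transcript and cover counting error only. Positions came from GENCODE M21 (55141 identifiers found) and upstream sequences from RefSeq. Alternatives were TPM without size factors, quantile normalization, FPKM, pseudocounts of 0.1 and 1, other filters, other variance models, a replicate block, and each sample left out in turn.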

Additional observations from a re-analysis of the deposited data

How the results depend on the processing

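The fall of the 8 members tested kept its direction under every alternative in which each was fitted. Their median log2 difference moved by more than the replicate spread to -1.75 on TPM as deposited and to -1.78 with a pseudocount of 0.1. Over all genes, the counts called higher and lower stayed near the main 61 and 63 with FPKM (62 and 65). Pseudocounts of 0.1 and 1 gave 63 and 64, and 61 and 66, and robust estimation in limma gave 57 and 60. The counts were not stable under the other alternatives or in the lists, and for all of them the cause was not tested. On TPM as deposited, where the median of all genes shifted to -0.33, 870 genes were called lower (54 higher). Counts of higher and lower genes were 92 and 133 with quantile normalization, 14 and 7 with no filter, 175 and 272 with a mean of at least 5 TPM (fewer genes tested), and 26 and 16 without the trend. They ran from 4 to 111 higher and from 1 to 377 lower when 1 sample was left out, with the highest numbers without Npc1-/- replicate 3.

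In the comparison lists, TPM as deposited called 4 other border macrophage genes, 9 microglia, 11 shared, 10 regulator, 4 activated microglia, 4 relative, 1 haem and iron, 12 endothelial, 9 mural, 1 fibroblast and 2 astrocyte genes. Quantile normalization called 2 microglia and 2 endothelial genes, and FPKM or a pseudocount of 1 called 2 microglia genes. A mean of at least 5 TPM gave 2 microglia, 2 regulator, 2 activated microglia, 0 relatives (Ly75 was below this minimum and not tested), 1 haem and iron, 6 endothelial, 6 mural and 2 astrocyte genes. Without a filter or without the trend, 0 microglia, activated microglia, relative and mural genes were called. Leaving out 1 sample gave 0 to 2 other border macrophage genes, 0 to 3 microglia, 0 to 3 shared, 0 to 5 regulator, 0 to 3 activated microglia, 0 to 2 relative, 0 to 3 endothelial and 0 to 6 mural genes.

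A replicate block gave 1143 genes called higher and 868 lower, and the lists then held 5 other border macrophage, 3 microglia, 2 shared, 4 regulator, 6 activated microglia, 4 relative, 2 haem and iron, 8 endothelial, 9 mural, 2 fibroblast, 3 oligodendrocyte, 3 astrocyte and 1 neuronal gene. Deviations of equally numbered samples correlated at 0.414, 0.0602 and 0.326, and each sample correlated best with its own number. The sources used here do not say whether the numbers pair the mice, and the main fit was made without a block. Whether they do was not tested.

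Some small differences changed sign. On TPM as deposited the log2 difference was -0.34 for Dcxr, -0.22 for Eif2b1, -0.26 for Fgfr1op, -0.19 for Morn2 and -0.067 for Snap25. Quantile normalization gave -0.031 for Fth1 and 0.040 for H2-DMa. With 1 sample left out, the values spanned -0.55 to 0.038 for Cd74, -0.064 to 0.63 for Ccl8, -0.036 to 0.076 for Dcxr, -0.36 to 0.13 for H2-Ab1, -0.16 to 0.14 for H2-DMa, -1.03 to 0.041 for Hbb-bs, -0.48 to 0.31 for Ppbp and -0.025 to 0.51 for Snap25. Depth limits Cd163, Pf4, Ms4a7 and Siglec1 most, at an estimated 4.7 to 27.1 fragments in the Npc1-/- libraries.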
